A study of Mus musculus with 6 samples.

Results

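The interferon-inducible GTPases described here are 4 guanylate-binding proteins (GBP genes Gbp2, Gbp3, Gbp6 and Gbp7) and 6 immunity-related GTPases (IRG genes Igtp, Irgm1, Irgm2, Iigp1, Ifi47 and Tgtp1). Their probes were found by the RefSeq accession that each non-control probe carries, with no threshold on a measured value, although the genes were listed with earlier results of these data known. All 10 had a probe, with 13 probes and 22 spots on each array, among 37069 genes with a probe. All 10 also passed the filter for testing, which kept 22342 genes whose probe was well above background on every array of at least 1 genotype.

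The values are 1-color signals of liver RNA on 6 arrays, 3 of L1-Tg mice and 3 of WT mice. L1-Tg mice carried human NPC1L1, an intestinal cholesterol transporter that human liver also makes and mouse liver hardly does, under the promoter of APOE (strain B6;D2-Tg(APOE-NPC1L1)20Lqyu/J). They were hemizygous, had been crossed back to C57BL/6J for at least 8 generations, and were compared with their WT littermates. All were males on a control diet (CFD), the mice of the study were between 6 and 12 weeks of age, and the age of those used for the arrays was not given separately. Each array held RNA pooled from 2 or 3 mice, and arrays of a genotype therefore differ as pools do, not as single mice do. All L1-Tg mice came from 1 transgenic line, and the array carried mouse probes, with which the human transgene was not checked. The arrays lay on 1 slide, with the WT arrays in one row and the L1-Tg arrays in the other, so row and genotype cannot be told apart.

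Markers of hepatocytes were well above background on all 6 arrays for 11 of 11 genes, with Alb (albumin) among the brightest. Markers of other cells differed between the arrays. The summed level of 14 T and NK cell markers, in multiples of the array's 75th percentile, was 239 in WT replicate 2. It was 165 and 102 in WT replicates 1 and 3 and 91.9 to 108 in the L1-Tg arrays. That of 9 neutrophil and monocyte markers was 90.4 in WT replicate 2. It was 32.9 and 35.7 in the other WT arrays and 32.3 to 38.7 in the L1-Tg arrays. Of these lists, 8 of 14 and 6 of 9 genes were well above background on all 6 arrays. In WT replicate 2 the T cell marker Cd4 (log2 level 7.76, against 6.23 to 6.50 in L1-Tg) made up most of the first sum and the neutrophil gene Elane (6.005, against 3.95 to 4.27) most of the second. Cd4, at 7.20 in WT replicate 1, made up most of the first sum on the other arrays too. In WT replicate 2 the T cell genes Cd3e, Cd3d and Cd3g were at 2.88, -1.73 and -2.12. The neutrophil genes Mpo and S100a9 were at -3.86 and 0.58 there. In WT replicate 2 both sums thus mainly follow 1 gene each, and neither measures the amount of those cells. With every tested T and NK cell marker weighted equally and centred on its WT mean, WT replicates 1 to 3 averaged -0.32, 0.54 and -0.25 and the L1-Tg arrays 0.03 to 0.18 on the log2 scale. Weighted in the same way, the neutrophil and monocyte markers averaged 0.47 in WT replicate 2, within the 0.26 to 0.51 of the L1-Tg arrays. The sum of 12 Kupffer cell markers had another order, with 110, 147 and 204 in WT replicates 1, 2 and 3 and 174 to 206 in L1-Tg. In bulk liver, more cells of a type and more RNA per cell cannot be told apart.

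Both families consist of large GTPases that are scarce in many resting cells and are made in larger amounts when interferons bind their receptors. In the WT livers here, all members but Tgtp1 were well above background on every array. Interferon-gamma is known to act mainly at DNA elements called GAS, and type I interferons mainly at elements called ISRE. The proteins gather on vacuoles that hold parasites or bacteria and help to break them open. Within the IRG family, Irgm1, Irgm2 and Igtp (also called Irgm3) guard the cell's own membranes and hold the effector members Iigp1, Tgtp1 and Ifi47 inactive until they are needed.

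The stretches of DNA just before the start of transcription are shown first, because they carry the elements through which interferons are known to act on these genes. They were read from RefSeq windows (build GRCm38.p6) that held 8 of the 10 members, all but Gbp6 and Iigp1, and the 250 bases before each transcript start were searched on both strands. Capitals mark a match to the GAS letters TTCNNNGAA or to the ISRE core GAAANNGAAA, which reads TTTCNNTTTC on the other strand. Each stretch ends 10 bases outside its outermost matches and is written 5′ to 3′ along the gene.
Gbp2: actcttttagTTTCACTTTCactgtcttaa
Gbp3: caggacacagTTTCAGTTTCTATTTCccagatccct
Gbp7: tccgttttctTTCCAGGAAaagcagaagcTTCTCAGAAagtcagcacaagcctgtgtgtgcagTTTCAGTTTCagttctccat
Igtp: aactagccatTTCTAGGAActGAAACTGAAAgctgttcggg
Irgm1: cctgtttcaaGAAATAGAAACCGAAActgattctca
Irgm2: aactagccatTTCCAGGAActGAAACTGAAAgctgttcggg
Tgtp1: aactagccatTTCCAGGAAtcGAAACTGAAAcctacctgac

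The GBP stretches lie on the plus strand at chr3:142620594-142620623 for Gbp2, chr3:142559989-142560024 for Gbp3 and chr3:142530220-142530302 for Gbp7. Those of Igtp (chr11:58199501-58199541) and Irgm2 (chr11:58214892-58214932) lie on the plus strand, and those of Irgm1 (chr11:48871425-48871460) and Tgtp1 (chr11:48992304-48992344) on the minus strand. An ISRE core stood before 7 of the 8 genes, against 3.46% of the 27025 genes with a window. A GAS match stood before 4 of the 8, against 8.13% of all genes, and both stood before Gbp7, Igtp, Irgm2 and Tgtp1, against 0.4% of all genes. In the windows of Gbp3 and Irgm1 a pair of ISRE matches overlapped. Gbp3 had 2 windows for 2 transcript starts, of which 1 held a match.

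Igtp, Irgm2 and Tgtp1 shared one arrangement, in which the GAS match begins 11 bases before the ISRE match. The GAS match began 45, 75 and 88 bases before the start of Igtp, Irgm2 and Tgtp1. Gbp7 held 2 GAS matches farther from its ISRE core. The 3 GBP genes with a window thus all had an ISRE core in at least 1 window, and 1 of them had a GAS, while 4 of the 5 IRG genes with a window had the ISRE core and 3 of them a GAS. The window of Ifi47 held neither set of letters, which says nothing about other positions. These matches are a description of the sequence, not of binding.

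**Figure D1:**
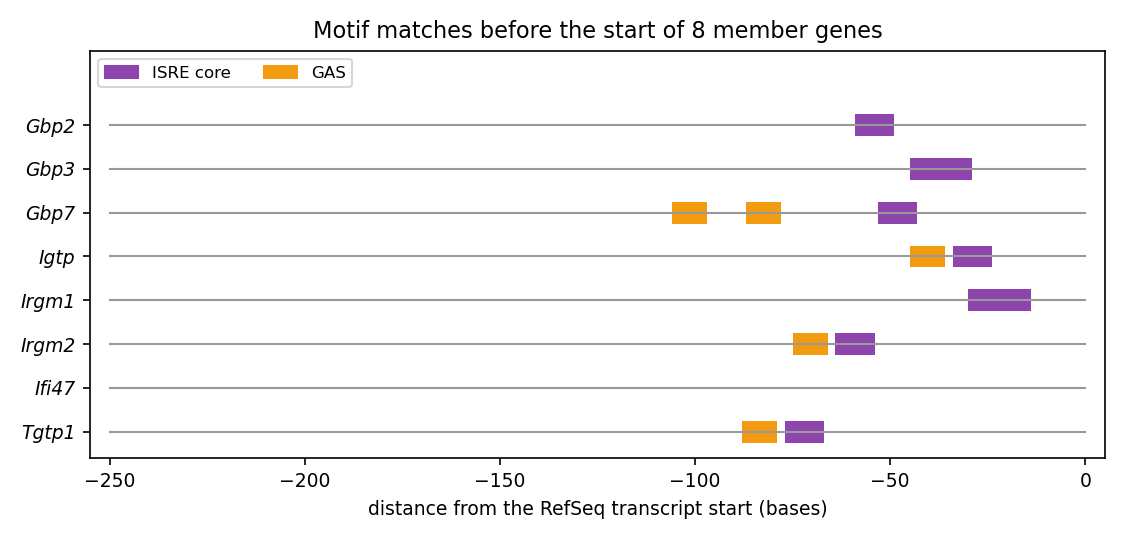
The distance in bases from the RefSeq transcript start is on the horizontal axis, with 1 line per member gene that had a window and boxes for the matches to the ISRE core (purple) and to GAS (orange). The matches lie within 106 bases of the start in 7 of 8 genes, side by side in Igtp, Irgm2 and Tgtp1, and Ifi47 has none.

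All 10 members had a higher mean in L1-Tg than in WT livers, by 0.25 to 1.58 on the log2 scale, and none passed the adjusted threshold of 0.05 (limma, adjusted p between 0.457 and 0.837), where 0.13% of all genes tested did. The GBP members had a median difference of 1.09 and the IRG members one of 0.42, against -0.03 over all genes tested. Of the 22342 genes tested, 9622 had a higher mean in L1-Tg. An unadjusted p under 0.05 was reached by 4 of the 10 members, Gbp3, Gbp6, Gbp7 and Iigp1, against 4.54% of all genes in the same direction. The arrays of the genotypes did not overlap for Gbp6, Gbp7 and Iigp1, against 7.27% of all genes. The difference index, which divides the difference of the means by the sum of the SDs on the linear scale, exceeded 0.7 for 6 of 10 members (Gbp3, Gbp6, Gbp7, Irgm1, Irgm2 and Iigp1), against 8.68% of all genes on the array and 11.8% of the genes tested. With 1 array left out, the members under an unadjusted 0.05 numbered 1 when L1-Tg replicate 1 or 3 was dropped, 2 when WT replicate 1 was, 3 when WT replicate 3 was, 3 when L1-Tg replicate 2 was, and 9 when WT replicate 2 was. The 9 included Tgtp1, which without WT replicate 2 had no WT reading well above background. Of all genes, 3.02% to 5.93% were under 0.05 in the same direction in the fits with 1 array left out. Markers of other cells also differed in mean between the genotypes, with 0 past the adjusted threshold: 11 of 12 Kupffer cell markers were higher in L1-Tg (median 0.31), as were 4 of 5 B cell markers (median 0.54) and 6 of 8 neutrophil and monocyte markers (median 0.48), and 9 of 11 hepatocyte markers were lower (median -0.11). Higher in L1-Tg were also 7 of 11 T and NK cell markers (median 0.08) and 5 of 8 endothelial markers (median 0.07). The part of these cell types in the member levels was not tested. In what follows a level is the log2 of the signal minus the 75th percentile of its array, so that 0 is the brightness of that percentile, and levels of different genes come from different probes and were not compared.

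**Figure D2:**
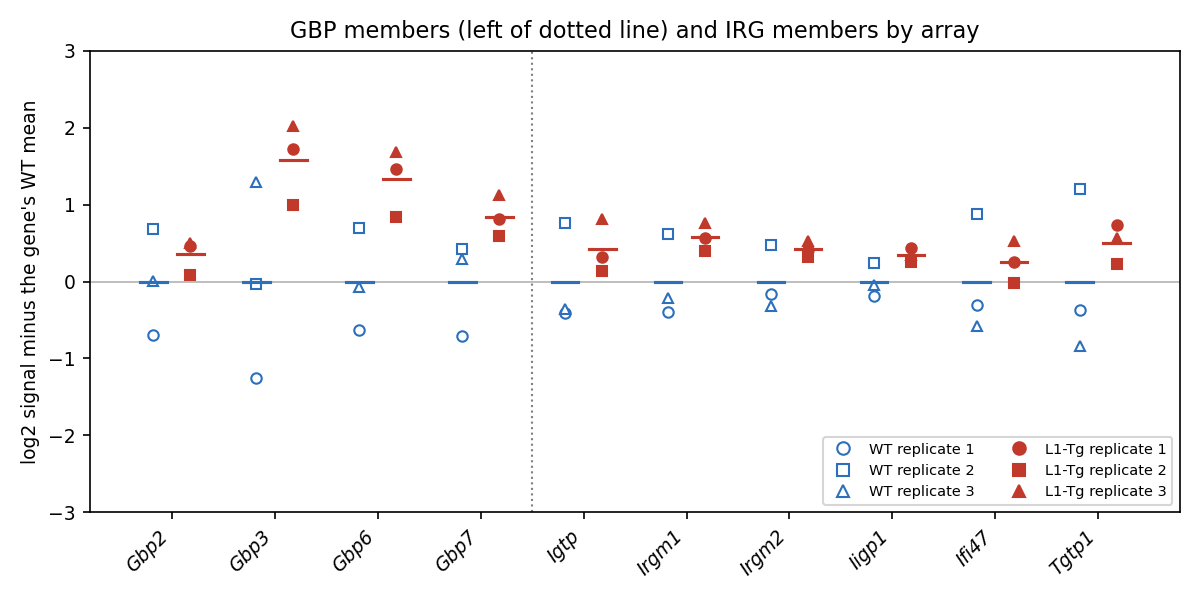
The vertical axis gives each array's log2 signal minus the WT mean of the gene, with L1-Tg arrays filled, WT arrays open, replicates by symbol and bars at the means of 3 arrays. WT replicate 2 is the highest WT array for every IRG member, Gbp3 has WT replicate 3 highest, and L1-Tg replicate 2 is the lowest L1-Tg array for all 10 members.

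Among the GBP members, Gbp3 and Gbp6 had the largest mean differences. Gbp3 had levels of 2.30, 1.58 and 2.59 in L1-Tg replicates 1 to 3 and of -0.68, 0.54 and 1.87 in WT replicates 1 to 3. WT replicate 3 lay above the lowest L1-Tg array, and the WT arrays spanned a wider range than those of any other member. The mean was higher in L1-Tg by 1.58 ± 0.64 (SE, n = 3 and 3; 95% interval 0.04 to 3.12; limma adjusted p = 0.556), a 2.99-fold difference.

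Gbp6 belongs to the second mouse cluster of GBP genes, and its nearest relative on the array is Gbp10, with which it may share probe binding. Its levels were 1.66, 1.03 and 1.87 in L1-Tg and -0.44, 0.89 and 0.12 in WT, so that the genotypes did not overlap, although WT replicate 2 came close to L1-Tg replicate 2. The mean difference was 1.33 ± 0.37 (SE, n = 3 and 3; 95% interval 0.43 to 2.23; limma adjusted p = 0.457), or 2.52-fold. A second, dimmer probe of Gbp6 gave 0.72, also without overlap, and there the lowest L1-Tg array and the highest WT array were both at 0.01 after rounding. The probe for Gbp10 differed by 0.21.

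Gbp7, which helps to assemble the oxidase that delivers superoxide to phagosomes, had levels of 0.39, 0.16 and 0.69 in L1-Tg and of -1.14, -0.00 and -0.14 in WT. Every L1-Tg array was above every WT array, and WT replicate 1 lay well below the other 2. The mean difference was 0.84 ± 0.32 (SE, n = 3 and 3; 95% interval 0.07 to 1.61; limma adjusted p = 0.547).

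Gbp2, which coats parasite vacuoles, differed least among the GBP members. Its levels were 0.73, 0.35 and 0.77 in L1-Tg and -0.43, 0.94 and 0.27 in WT, and WT replicate 2 was the highest of all 6 arrays. The difference of 0.35 ± 0.34 (SE, n = 3 and 3; limma adjusted p = 0.739) had a 95% interval from -0.47 to 1.17, which holds both 0 and the mean difference of Gbp7.

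The 3 regulatory IRG members lay in a narrow band of differences. Irgm1, which is needed for resistance to mycobacteria and acts in autophagy, had levels of 3.63, 3.46 and 3.83 in L1-Tg and 2.68, 3.68 and 2.85 in WT. Irgm2, found at the Golgi, had 3.87, 3.78 and 3.996 in L1-Tg and 3.30, 3.94 and 3.15 in WT. Igtp, found at the endoplasmic reticulum, had 4.54, 4.36 and 5.03 in L1-Tg and 3.82, 4.99 and 3.87 in WT.
In all 3 genes, WT replicates 1 and 3 lay below every L1-Tg array and WT replicate 2 lay within the L1-Tg range. Irgm1 differed by 0.57 ± 0.27 (SE, n = 3 and 3; 95% interval -0.08 to 1.23; limma adjusted p = 0.584). Irgm2 differed by 0.42 with an interval from -0.10 to 0.94, and Igtp by 0.42 with an interval from -0.43 to 1.27. The probe for Igtp was printed in 10 spots per array, whose SD within an array was 0.037 to 0.056 on the log2 scale. A second probe for Irgm1 differed by 0.70, and on that probe WT replicate 2 stayed below all L1-Tg arrays.

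Of the effector IRG members, Iigp1, which forms coats on vacuole membranes, had the smallest spread. Its levels were 4.45, 4.28 and 4.37 in L1-Tg and 3.83, 4.26 and 3.97 in WT. The genotypes did not overlap, with WT replicate 2 only just below L1-Tg replicate 2, and the mean difference was 0.35 ± 0.14 (SE, n = 3 and 3; 95% interval 0.02 to 0.67; limma adjusted p = 0.547). On a second probe, which differed by 0.38, the genotypes overlapped.

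Ifi47 had levels of 3.53, 3.26 and 3.80 in L1-Tg and of 2.97, 4.15 and 2.70 in WT. WT replicate 2 was the highest of all arrays and the other WT arrays were the lowest. The difference of 0.25 ± 0.38 (SE, n = 3 and 3; 95% interval -0.67 to 1.18; limma adjusted p = 0.837) was the smallest of the members, and it became -0.034 when WT replicate 3 was left out.

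Tgtp1 was dim, with its probe well above background on all 3 L1-Tg arrays and on 1 WT array, replicate 2. Its levels were -2.68, -3.18 and -2.84 in L1-Tg and -3.78, -2.20 and -4.24 in WT, where replicates 1 and 3 were readings not well above background and have no order. It passed the filter through the L1-Tg arrays alone. The difference was 0.51 with an interval from -0.73 to 1.74 (limma adjusted p = 0.751, n = 3 and 3). Its near-identical copy Tgtp2 had a probe with levels of 3.80, 3.50 and 3.89 in L1-Tg and 1.99, 4.36 and 2.66 in WT, a difference of 0.73. Either probe may bind transcripts of both copies, so the values belong to the pair.

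**Figure D3:**
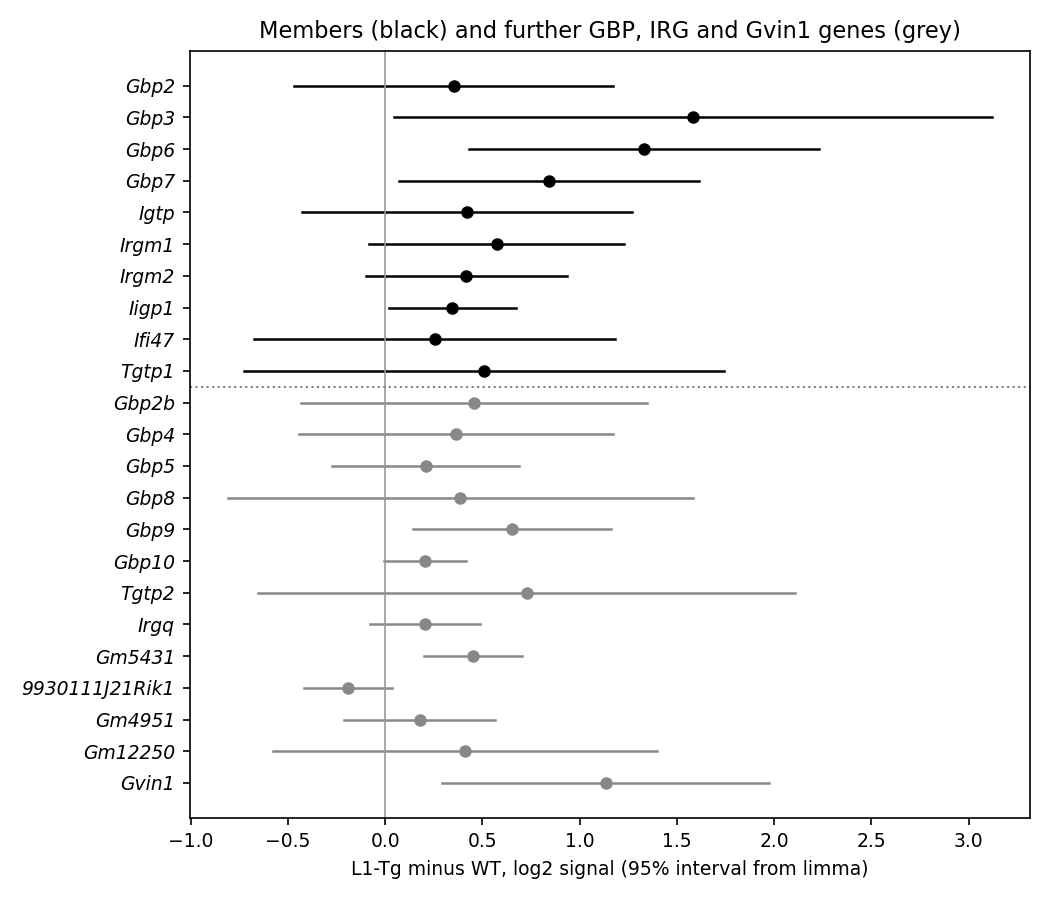
The horizontal axis gives the L1-Tg minus WT difference in log2 signal with its 95% interval from limma, for the 10 members in black and 13 further GTPase genes (the other GBP and IRG genes and Gvin1) in grey. The intervals of Gbp3, Gbp6, Gbp7 and Iigp1 lie above 0 without adjustment for the number of genes tested, and those of the other 6 members include 0.

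The arrays ranked alike across the members. WT replicate 2 was the highest WT array for 9 of 10 members, all 6 IRG and 3 of the 4 GBP, where it was the highest for 29.5% of all genes tested. L1-Tg replicate 2 was the lowest L1-Tg array for 10 of 10, where it was for 27.8% of all genes. WT replicates 1 and 3 both lay below all L1-Tg arrays for 9 of 10, with Gbp3 as the exception, against 10.4% of the genes tested without WT replicate 2. The SD was larger in WT than in L1-Tg for 10 of 10 members, against 65.4% of all genes, with a median SD of 0.66 in WT and 0.26 in L1-Tg. These counts include Tgtp1, whose readings in WT replicates 1 and 3 were not well above background. The members are not independent of each other, and these are counts over the same 6 arrays.

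Averaged over the members after centring each gene on its WT mean, the IRG family stood at -0.30, 0.70 and -0.39 in WT replicates 1 to 3 and at 0.45, 0.22 and 0.59 in L1-Tg replicates 1 to 3. The GBP family stood at -0.82, 0.44 and 0.38 in WT and at 1.12, 0.63 and 1.33 in L1-Tg. Thus the GBP averages of the genotypes did not overlap, while WT replicate 2 had the highest IRG average of the 6 arrays.
The GBP average minus the IRG average was 0.67, 0.41 and 0.74 in L1-Tg and -0.52, -0.25 and 0.77 in WT. The mean of this contrast was higher in L1-Tg by 0.61, but WT replicate 3 had the highest value of all 6 arrays, so the larger mean difference of the GBP family was within the spread between pools. In WT replicate 3, Gbp3 was at its highest WT level and the IRG average at its lowest. Among the IRG members, the mean difference was 0.47 for the regulatory group of Irgm1, Irgm2 and Igtp and 0.37 for Iigp1, Ifi47 and Tgtp1.

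Leaving out WT replicate 2, the WT array with the highest T and NK cell marker average, changed the count of separated members most. Since it was the highest WT array for 9 of 10 members, its removal had to raise their differences, and the counts without it are a description, not support. Without it, 9 of 10 members, all but Gbp3, had an unadjusted p under 0.05 (4.1% of all genes, higher in L1-Tg), and the genotypes did not overlap for the same 9. The median difference was then 0.84 over all members, 1.31 for GBP and 0.75 for IRG. None passed the adjusted threshold without it either, where 0.067% of all genes did, and the lowest limma adjusted p was 0.297, for Irgm1 (unadjusted 0.00135, difference 0.88).

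**Figure D4:**
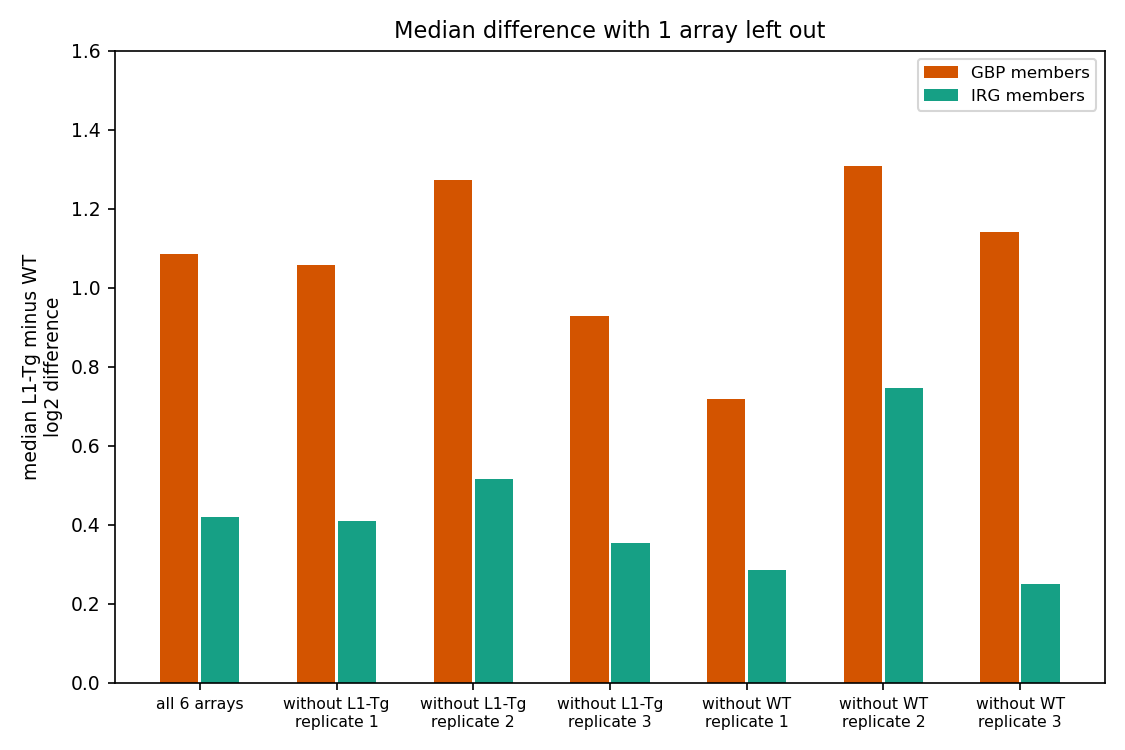
The bars give the median L1-Tg minus WT difference in log2 signal over the 4 GBP members and over the 6 IRG members, with all 6 arrays and with each array left out. The medians run from 0.72 to 1.31 for GBP and from 0.25 to 0.75 for IRG, both are highest without WT replicate 2, and the GBP median is above the IRG median in every case.

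Further interferon-inducible and related GTPase genes, the other GBP and IRG genes and the giant GTPase gene Gvin1, numbered 16 on the array, of which 13 were tested, 12 had a higher mean in L1-Tg and 0 passed the adjusted threshold. Their median difference was 0.39, and 3 had an unadjusted p under 0.05. These were Gvin1, which belongs to neither family, with a difference of 1.13 (95% interval 0.29 to 1.97), Gbp9 with 0.65 (0.14 to 1.16) and Gm5431, an IRG-like gene, with 0.45 (0.20 to 0.71). In all 3, as for Gbp3, WT replicate 3 was the highest WT array.
Gbp2b differed by 0.46, Gbp4 by 0.36, Gbp8 by 0.39 and Gbp5, which promotes inflammasome assembly, by 0.21, each with an interval that includes 0. The same held for the IRG-like genes Gm12250 at 0.41 and Gm4951 at 0.18, and for Irgq at 0.20, which lacks the usual GTPase residues. 9930111J21Rik1 was the one tested gene with a lower mean in L1-Tg, at -0.19. A second, dimmer probe of it had the opposite sign, at 0.20, so its direction depends on the probe. Irgc1, 9930111J21Rik2 and Gm12185 were not well above background on all arrays of either genotype and were not tested.

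Genes upstream of the families mostly differed little between the genotypes. Of 28 ligands, receptors and signalling genes tested, 18 had a higher mean in L1-Tg, with a median of 0.09, and 0 passed the adjusted threshold. Usp18, which damps type I interferon signalling, differed by 1.47 (limma adjusted p = 0.200), Irf7, a factor that amplifies it, by 1.66, and Irf9 by 0.30. Ifng, the interferon-gamma gene, was dim, with a probe well above background on 3 L1-Tg arrays and 1 WT array, and had levels of -4.03, -4.27 and -4.13 in L1-Tg and of -4.66, -3.36 and -5.28 in WT. Its highest array was thus WT replicate 2, as for Ifi47, Tgtp1 and Gbp2.
The chains of the interferon-gamma receptor, Ifngr1 and Ifngr2, differed by 0.24 and 0.26, and those of the type I receptor, Ifnar1 and Ifnar2, by -0.13 and -0.04. The kinases Jak1 and Jak2 differed by -0.21 and -0.06. Of the 28 genes tested, 4 were higher in every L1-Tg array than in every WT array, Usp18, Irf9, Ifngr1 and Ifngr2. Another 2, Ifnar1 and Jak1, were lower in every L1-Tg array. Over all 22342 genes tested, 1625 were higher without overlap and 1928 lower. Irf1, which interferon-gamma induces early, had levels of 3.68, 3.28 and 3.42 in L1-Tg and 3.27, 3.90 and 3.51 in WT, with WT replicate 2 again the highest and a difference of -0.10 (95% interval -0.56 to 0.36).

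Lists of genes induced by the types of interferon were set beside the members. Of 23 type I induced genes, 23 had a higher mean in L1-Tg with an unadjusted p under 0.05, with a median of 1.37, and 0 passed the adjusted threshold. WT replicate 3 was the highest WT array for 19 of them and WT replicate 2 for 3. The list includes Oasl1 (1.37), Rsad2 (1.90), Cmpk2 (1.56), Ifit2 (1.47) and Trim30a (1.33), genes known from the antiviral response.
Of 22 genes induced by interferon-gamma, 15 had a higher mean in L1-Tg, with a median of 0.20, 3 had an unadjusted p under 0.05 and 0 an adjusted one. These were the chemokine Cxcl10 (1.35), the immunoproteasome subunit Psmb8 (0.46) and the peptide transporter Tap1 (0.53). WT replicate 2 was the highest WT array for 18 of the 22 and WT replicate 3 for 2, where over all genes these arrays were the highest for 6590 and 6720 of 22342.
By their highest WT array, the 6 IRG members, Gbp2, Gbp6 and Gbp7 fell in with most of the interferon-gamma list, and Gbp3 with most of the type I list. The placing of Gbp7 is weak, since its levels in WT replicates 2 and 3 were close (-0.00 and -0.14, against -1.14 in replicate 1). Of the 13 further GTPase genes tested, WT replicate 2 was the highest WT array for 6 and WT replicate 1 for 2. WT replicate 3 was the highest for 5, among them Gbp9 and Gvin1. Marker lists of several cell types also differed in their highest WT array. WT replicate 3 was the highest for 12 of 12 Kupffer cell, 6 of 8 endothelial and 4 of 5 B cell markers. For 7 of 11 T and NK cell markers and 5 of 8 neutrophil and monocyte markers it was WT replicate 2. Of 11 hepatocyte markers, each of these 2 arrays was the highest for 4. The part of cell types in this split was not tested. Many of these genes respond to both kinds of interferon, so the names of the lists do not assign a source.

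**Figure D5:**
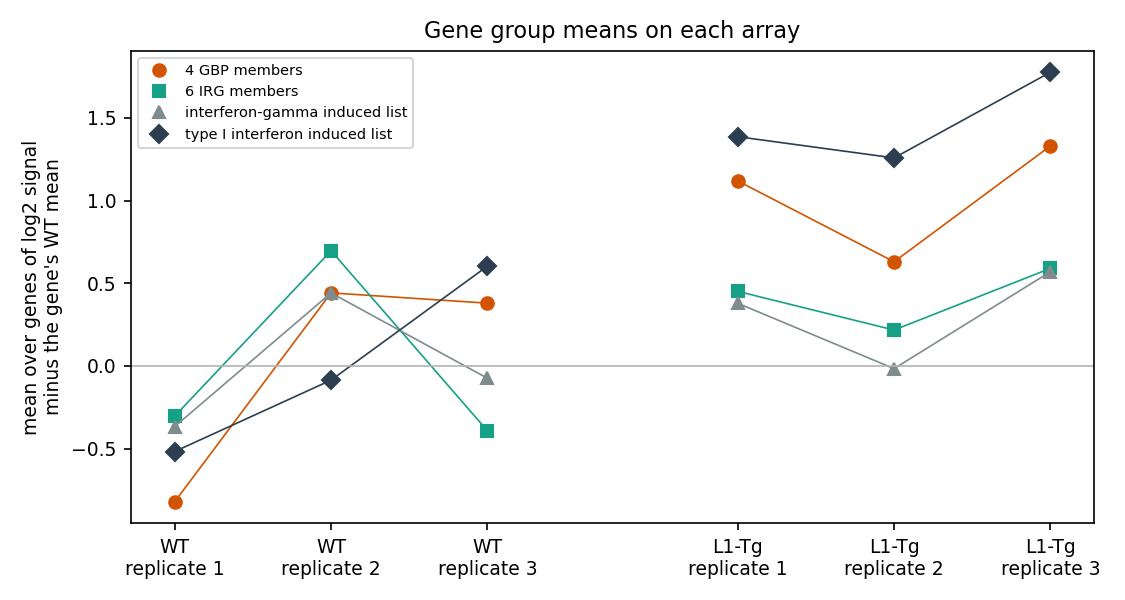
The vertical axis gives the mean over a group's genes of the log2 signal minus each gene's WT mean, for the 4 GBP members, the 6 IRG members, 22 interferon-gamma induced and 23 type I induced genes on each of the 6 arrays. WT replicate 2 is at 0.70 for IRG and 0.44 for the interferon-gamma list, within or above the L1-Tg arrays, and at -0.09 for the type I list, where the lowest L1-Tg array is at 1.26.

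The genes whose levels followed the mean of the members most closely over the 6 arrays, among 842 candidates with an SD of at least 0.5, were Cd274 (Pearson's r = 0.982), Il2rb (0.981), Vnn1 (0.966), Gbp2b (0.950) and Cxcl9 (0.939). They are given as a description over 6 arrays that share genotype and slide. Cd274, which encodes PD-L1, had levels of -0.94, -1.52 and -0.81 in L1-Tg and of -2.98, -1.27 and -1.91 in WT, the pattern of the members with WT replicate 2 raised among the WT arrays. Cxcl9, an interferon-gamma chemokine, was at 1.65, 1.06 and 2.08 in L1-Tg and at 0.18, 2.09 and 0.91 in WT. Within the members, Irgm1 followed the mean of the other 9 most closely (r = 0.978) and Gbp3 least (r = 0.576).

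Genes that act with the GTPases at vacuoles and inflammasomes differed little. Of 24 tested, 14 had a higher mean in L1-Tg, with a median of 0.12, and 0 passed the adjusted threshold. Casp1, the inflammasome protease, differed by 0.52 (95% interval 0.04 to 1.00) and Nlrp3, an inflammasome sensor, by 0.31 (0.04 to 0.59). Casp1, Nlrp3, Traf6 and Rab5a, 4 of the 24, were higher in every L1-Tg array than in every WT array. Atg12 and Map1lc3b, 2 of the 24, were lower in every L1-Tg array. Over all 22342 genes tested, 1625 were higher without overlap and 1928 lower. Sqstm1, an autophagy adaptor that marks damaged vacuoles, differed by 0.41 (-0.04 to 0.86), Traf6 by 0.20 and Map1lc3b, a membrane tag of autophagy, by -0.17.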

How the data were processed

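The authors scanned the arrays and made spot files with Agilent Feature Extraction 10.10.1.1. The deposited processed signal is an intensity on a linear scale, background-subtracted and detrended in each array, and not scaled between arrays. The deposited marks (well above background, saturated, non-uniform) are other flags of 0 or 1. The deposited matrix of intensities equals the processed signal times 1 factor per array (2.46 to 2.98), whose origin is not given in the sources used here. The 75th percentile was an intensity of 297 to 378, between 53.1% and 59.2% of spots were well above background, 0 were saturated, and no member spot was marked non-uniform. The number of arrays limits the precision.

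From these, log2 signals minus the 75th percentile of the array were computed. Non-uniform spots were left out, spots of a probe averaged, and a gene took its probe with the highest mean. Of 28685 RefSeq-named probes, 27235 matched a symbol. Genotypes, taken from the labels, were compared in R 4.3.3 by the moderated test of limma 3.58.1 (two-sided, Benjamini-Hochberg over 22342 genes, threshold 0.05), and tables were read with jsonlite 2.0.0 and the package data.table (version 1.17.8). An exact permutation test on 3 against 3 arrays cannot go below 0.1. The limma fit was checked on simulated data, and the overlap count and the difference index on small made-up examples. The other steps were not checked in this way.

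The members, gene lists and tests were chosen with earlier results of these data known. Named were all members, the other GBP and IRG genes with Gvin1, up to 5 genes of smallest p per list, 9 genes of interferon signalling (1 of them is not reported here), cell type markers and the 5 genes most like the members. Mx1 and Mx2 were not matched by accession. Alternatives covered scaling, background, filter, probes, variances, a replicate block and each array left out.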

Additional observations from a re-analysis of the deposited data

How the results depend on the processing

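No member passed the adjusted threshold under any of the alternatives, and 9 of the 10 differences kept their sign in all of them. The exception was Ifi47, at -0.034 without WT replicate 3 and between that and 0.69 over the arrays left out. With 1 array left out in turn, the members with an unadjusted p under 0.05 numbered 1 to 9, those whose genotypes did not overlap 3 to 9 and those past the difference index 3 to 9. Of all genes, 3.02% to 5.93% then had such a p and 10.4% to 13.7% did not overlap, higher in L1-Tg. With all 6 arrays, 11.8% of the genes tested passed the index in that direction. No such share is given with 1 array left out, so the index counts there are not read against a background. The count with an unadjusted p under 0.05 was 1 without L1-Tg replicate 1 or 3, 2 without WT replicate 1, and 9, the dim Tgtp1 among them, without WT replicate 2. The index passed 3 members without L1-Tg replicate 1, L1-Tg replicate 3 or WT replicate 1. The medians ran from 0.33 to 0.84 over all members, from 0.72 to 1.31 for GBP and from 0.25 to 0.75 for IRG, and the GBP minus IRG contrast from 0.35 to 0.99. Testing all genes without a filter on dim probes left 2 members with an unadjusted p under 0.05, against 2.80% of all genes higher in L1-Tg. Ordinary variances in place of limma's shared ones left 1, against 3.98%. An index above 1 was reached by 3 members, a count that has no share of all genes beside it and is not read as a result. Scaling to the array median moved the median of all genes from -0.03 to 0.08 and gave 6 members with an unadjusted p under 0.05, against 7.05% of all genes.

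With the replicate number as a block, 3 members had an unadjusted p under 0.05, against 4.02% of all genes higher in L1-Tg. Same-numbered arrays of the genotypes deviated with correlations of -0.157, 0.111 and 0.0193, and differently numbered ones with -0.168 to 0.168. With 3 arrays per genotype, these values cannot decide whether the numbers pair the arrays. Over all genes, 29 passed the adjusted threshold, against 10 without the filter, 19 with the mean of the probes, 0 with ordinary variances, 11 with the block and 15 to 35 with 1 array left out. What limits the values is the number of pools, the spread between WT pools, and for Tgtp1, Ifng and Gbp8 a signal near background in WT. Probes for near-identical copies (Tgtp1 and Tgtp2, Gbp6 and Gbp10) may bind transcripts of either copy.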
